A study of Acorus calamus with 8 samples.

Results

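Mitochondrial respiration genes of sweet flag (Acorus calamus, a rhizome-forming wetland monocot) were taken as the assembled features whose SwissProt description names a subunit of the respiratory complexes, a succinate dehydrogenase, an alternative (ubiquinol) oxidase or a mitochondrial ATP synthase subunit. Of 24636 features, 131 had such a description, 41 of these were left out because their Nr match is marked as mitochondrion or chloroplast, and 90 remained as members. RNA had been sequenced from explants cultured on Murashige and Skoog medium with a pair of auxins, NAA at 0.5 mg/l and 2,4-D at 2 mg/l, for cut and uncut explants alike. Explants either had their leaves shortened (cut) or did not (uncut), and leaf and rhizome were taken 4 days and a month later, with the time of uncut explants counted in the same way. Each combination of tissue, cutting and time was 1 library, 8 in all. The labels give no genotype, no plant age and no number of explants per library.

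Plant mitochondria pass electrons from NADH through complex I and from succinate through complex II to ubiquinone, then through complex III (cytochrome b-c1) and complex IV (cytochrome c oxidase) to oxygen, and ATP synthase uses the resulting proton gradient. Plants also have a branch that pumps no protons, in which type II NAD(P)H dehydrogenases feed ubiquinone and the alternative oxidase passes its electrons straight to oxygen. Most subunits are encoded in the nucleus and imported, while a few, among them the numbered chains of complex I and ATP synthase subunit 9, are encoded in mitochondrial DNA in most plants.

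By description, 32 members were complex I, 7 complex II, 12 complex III, 9 complex IV, 13 ATP synthase and 2 alternative oxidase subunits, and 4 were assembly factors. These 79 are called nuclear by name below. The label went only partly with the data for the other 11. Of these, 10 carried the names of mitochondrially encoded subunits: 7 features were named chain 2 of complex I, 1 each chain 4 and chain 5, and CL299.Contig1 was named ATP synthase subunit 9, although its Nt match is the gene of the mitochondrial large ribosomal RNA. The remaining member was Unigene3958, a ubiquinol oxidase of plastids. Among the complex I members, CL1369.Contig4 was named iron-sulfur protein 8 by SwissProt but a transcription factor by Nr. The 90 members had 60 distinct descriptions and 35 were contigs of a cluster, so like-named members can share reads and are not independent genes.

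Library totals ran from 6876374 to 12541182 counts, of which ribosomal RNA features took 74.98% to 97.87%. The depth that bears on the members is therefore that of the other features: nuclear features held 120282 counts in uncut rhizome at 4 days, the shallowest library, against 467623 to 1695286 in the other 7. The 79 members nuclear by name held 784 counts in that library and 1456 to 5854 in the others, and 65 of them had at least 1 count there against 71 to 76 elsewhere. Levels are given as CPM, edgeR's library-scaled counts after TMM scaling. As a check of the tissue labels, 42 of 52 tested photosystem and Rubisco features were lower in rhizome (edgeR, adjusted p under 0.05), with a summed level of 62.5 to 201 CPM in rhizome and 1173 to 4268 CPM in leaf. Each factor was tested with edgeR's quasi-likelihood test over 4 matched pairs of libraries, with Benjamini-Hochberg adjustment over all 11682 features tested, and 81 members entered, 70 of them nuclear by name. Because a combination has 1 library, the spread behind a p-value is that between these 8 libraries and not between repeated cultures. In tissue RNA, fewer cells of a type and less RNA per cell cannot be told apart.

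Per length, the most abundant nuclear-named members were several ATP synthase subunits and subunit 5C of complex IV. Subunit d of ATP synthase (Unigene4629), a part of the stalk that holds the catalytic head, had a mean of 8.59 RPKM over the 8 libraries, the CPM divided by the feature's length in kilobases. Cytochrome c oxidase subunit 5C (CL1379.Contig2), a small nuclear subunit of complex IV, had 8.19 RPKM. The catalytic beta subunit of ATP synthase (CL400.Contig2) had 7.36 RPKM and subunit O (Unigene9437), which joins the head to the stalk, had 6.86 RPKM. In complex II the highest was subunit 7B (Unigene8098) with 5.52 RPKM, a plant-specific subunit, followed by the iron-sulfur subunit 2 (Unigene3830), which carries electrons within the complex, with 4.97 RPKM. The alpha subcomplex subunit 13-A (Unigene2473) led complex I with 4.97 RPKM, and subunit 7 (Unigene1484) led complex III with 4.45 RPKM. The median over members of the mean RPKM was 3.83 for the 2 alternative oxidases, 3.61 for ATP synthase and 3.601 for complex II. It was 3.01 for complex III, 2.41 for complex IV and 2.09 for complex I. The place of the alternative oxidases in this order rests on leaf at a month. Their summed level there was 23.8 CPM in uncut and 36.2 CPM in cut explants, against 2.77 to 8.11 CPM elsewhere. The 4 assembly factors had a lower median, 0.85 RPKM. The highest of them, succinate dehydrogenase assembly factor 2 (Unigene4784), had 1.97 RPKM, near the complex I median. COX15 (Unigene5137), needed to make the heme of cytochrome c oxidase, had 0.974 RPKM, and COX11 (Unigene19019), which helps place its copper, had 4 counts in all 8 libraries together. CL299.Contig1 stood far above every other member with 255 RPKM. The order among the abundant members rests on uncut rhizome at 4 days, the shallow library, where Unigene4629 held 38.5 CPM against 6.61 to 15.0 CPM in the others. Without that library, an alternative chosen after seeing the data, CL400.Contig2 had 7.67, CL1379.Contig2 6.57, Unigene9437 6.51 and Unigene4629 6.16 RPKM. The medians were then 4.11 for the alternative oxidases, 3.56 for complex II, 3.32 for ATP synthase and 1.78 for complex I, while Unigene4784 had 2.17 RPKM.

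Several subunits were spread over like-named contigs. The 3 beta subunit contigs of ATP synthase held fairly stable shares, with CL400.Contig2 at 50% to 72.1% of their counts in every library. The 2 contigs named cytochrome c oxidase subunit 6b-2 did not: Unigene3551 held 23.3% of their counts in cut leaf at a month, and 89.5% in the uncut rhizome library at 4 days. Of the 4 features named cytochrome b-c1 subunit 6, CL2540.Contig2 held 19.0% of the counts in uncut leaf at 4 days and 80.3% in cut rhizome at 4 days. Levels of single contigs of such names are uncertain for that reason.

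**Figure D1:**
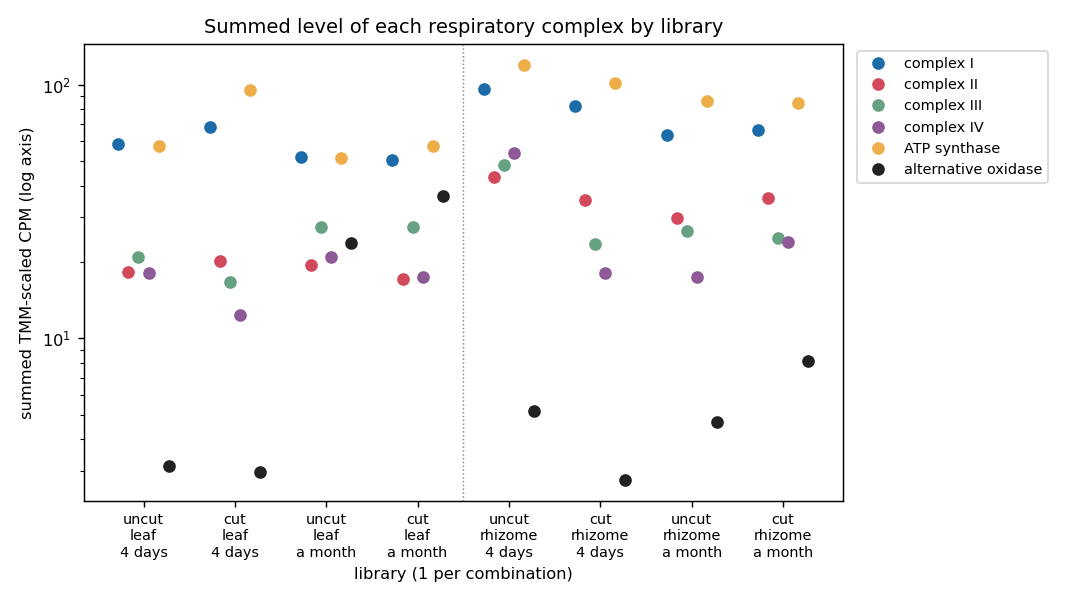
Summed TMM-scaled CPM (log axis) of the members of each respiratory complex in each of the 8 libraries, leaf at the left and rhizome at the right of the dotted line; each point is 1 library. Complex II lies between 17.1 and 20.2 CPM in leaf and between 29.7 and 43.2 CPM in rhizome, and the alternative oxidases stand at 23.8 and 36.2 CPM in the leaf libraries at a month against 2.77 to 8.11 CPM in the other 6.

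Between rhizome and leaf, none of the 70 tested members nuclear by name passed the threshold by edgeR's adjusted p. An unadjusted edgeR p under 0.05 was found for 9 of the 70 (12.9%), a smaller share than the 23.85% of all features tested. DESeq2's Wald test called 1 nuclear-named member higher in rhizome, and limma on log2(FPKM + 1) called 2 lower, both alternative oxidases. Over all members, 2 of 81 were called, both higher in rhizome and both of mitochondrially encoded name, where 9% of all features tested were called, 2.07% as higher and 6.93% as lower in rhizome. The median log2 difference of the nuclear-named members was 0.36, with 51 above and 19 below 0, against -0.14 over all features. This direction depended on the scaling: on the deposited FPKM values, which divide by all reads including ribosomal RNA, the median was -0.60 for nuclear-named members and -0.73 for all features with a pseudocount of 1. Without the uncut pair at 4 days, which holds the shallow library, the nuclear-named median was 0.35 and that of all features -0.03. The median standard error of a nuclear-named member was 0.52, so differences of this size in single genes were not detectable in these 8 libraries. The SE was 0.44 for CL299.Contig1, a member with 52067 counts in all, so it was not set by count depth alone.

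Complex II, succinate dehydrogenase, was the complex whose summed level did not overlap between the tissues on the TMM scale. This was not particular to it. The sum of all 79 nuclear-named members did not overlap either, at 178.9 to 216.6 CPM in leaf and 230.3 to 368.3 CPM in rhizome. Nor did that of the features of mitochondrially encoded name, at 325 to 468.4 and 692 to 1826 CPM. Complex II held 18.3 CPM in uncut and 20.2 in cut leaf at 4 days, and 19.5 and 17.1 in uncut and cut leaf at a month. In rhizome it held 43.2 CPM in uncut and 35.3 in cut libraries at 4 days, and 29.7 and 35.6 at a month. The rhizome library was the higher in each of the 4 pairs, with means of 18.8 ± 1.34 in leaf and 36.0 ± 5.56 in rhizome (SD over 4 libraries of unlike cutting and time). Of its 6 tested members, 5 were above 0 and 3 had an unadjusted edgeR p under 0.05, where 23.85% of all features did. The median log2 difference of 0.89 became -0.24 on FPKM with a pseudocount of 1, where all features had -0.73. Summed FPKM of the complex overlapped, at 19.99 to 56.7 in leaf and 15.4 to 44.4 in rhizome. No member passed the adjusted threshold.

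The flavoprotein subunit of succinate dehydrogenase (Unigene5888), which oxidises succinate, held 4.00 and 7.41 CPM in uncut and cut leaf at 4 days and 3.44 and 3.52 CPM in uncut and cut leaf at a month. In rhizome it held 7.05 and 14.05 CPM at 4 days and 9.12 and 10.1 CPM at a month. The ranges overlapped, since uncut rhizome at 4 days, with 15 counts, lay below cut leaf at 4 days, yet each rhizome library exceeded its matched leaf library by 1.76 to 2.88 times. Its fitted log2 difference was 1.17 ± 0.40 (SE, 4 pairs) with an adjusted p of 0.0845 by edgeR, the smallest among nuclear-named members, and DESeq2's Wald test called it (adjusted p of 0.0183). The iron-sulfur subunit 2 (Unigene3830) had a log2 difference of 1.24 ± 0.52 and an adjusted p of 0.160. The small plant-specific subunit 8A (CL1822.Contig2) was the exception in the complex at -0.10 ± 0.52.

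Complex I and ATP synthase were also higher in the rhizome library of each pair when their members were summed, but their ranges overlapped. Complex I held 50.5 to 67.8 CPM in leaf and 63.6 to 95.8 CPM in rhizome, and ATP synthase 51.3 to 94.8 CPM in leaf and 85.0 to 119.8 CPM in rhizome. The fitted median was 0.31 for complex I, with 22 of 29 members above 0, and 0.42 for ATP synthase, with 11 of 13 above 0; on FPKM with a pseudocount of 1 both medians were below 0, at -0.61 and -0.49. Complex III had a median of 0.08 (-0.85 on FPKM), with 6 of 10 members above 0. Complex IV had a median of 0.62 (-0.45 on FPKM, 0.24 without the uncut pair at 4 days), with 7 of 8 above 0, but only 1 of the 8 was higher in rhizome among uncut explants at a month. Its summed level was 53.6 CPM in uncut rhizome at 4 days and 17.4 to 24.0 CPM in the other rhizome libraries, against 12.4 to 20.9 CPM in leaf, so the shallow library held the highest value.

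The features of mitochondrially encoded name had larger fitted differences than the nuclear-named members. All 10 had a fitted log2 difference above 0, with a median of 1.39. The gap was in the pairs at a month, with medians of 1.77 (uncut) and 1.99 (cut), against 0.09 and 0.38 for nuclear-named members. At 4 days the medians were 0.95 (uncut) and 0.24 (cut), against 0.76 and 0.27. CL299.Contig1, the feature that matches mitochondrial large ribosomal RNA, held 257 and 380 CPM in uncut and cut leaf at 4 days, 305 and 320 CPM in uncut and cut leaf at a month, 1670 and 595 CPM in uncut and cut rhizome at 4 days and 1466 and 974 CPM in uncut and cut rhizome at a month. The tissues did not overlap. Its log2 difference was 1.81 ± 0.44 (SE) with an adjusted p of 0.0193 by edgeR. CL351.Contig3, named chain 2 of complex I, had 1.95 ± 0.52 with an adjusted p of 0.0297 by edgeR. It held 20.6 and 15.0 CPM in uncut and cut leaf at 4 days, 4.15 and 2.82 in leaf at a month, 77.1 and 15.7 in rhizome at 4 days and 29.2 and 21.5 in rhizome at a month, so the tissues overlapped through the cut libraries at 4 days. Both calls were lost without the uncut pair at 4 days, without the uncut pair at a month and without the cut pair at a month, with log2 differences there of 1.502 to 1.94 for CL299.Contig1 and 1.66 to 1.95 for CL351.Contig3. Both were also lost on FPKM, where limma gave 0.58 for CL299.Contig1 and 0.40 for CL351.Contig3 with a pseudocount of 1 (adjusted p of 0.528 and 0.613). Of the 36 tested features that the Nr rule had left out as mitochondrial or chloroplast sequence, 5 were higher in rhizome and none lower, with a median of 1.28, where 2.07% of all features tested were called higher and 6.93% lower. The labels name poly(A) capture and ribosomal RNA removal as options without saying which a library had, and the part of that step in these values was not tested.

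**Figure D2:**
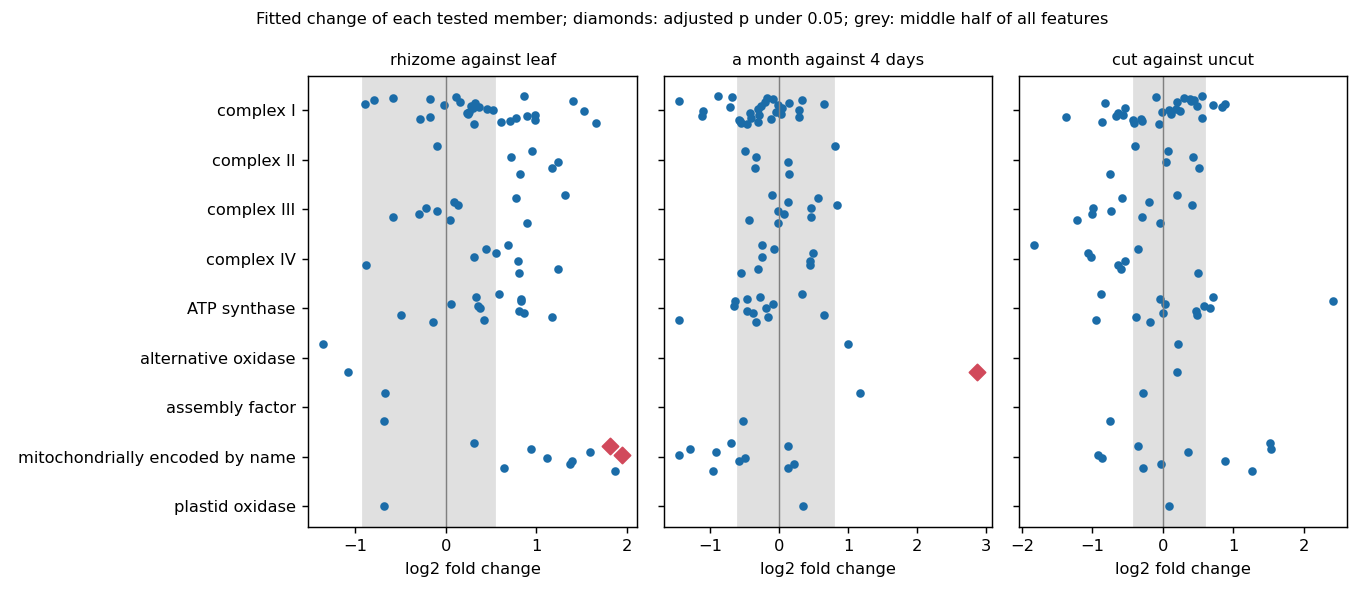
Fitted log2 fold change of every tested member, by role, for rhizome against leaf, a month against 4 days and cut against uncut; diamonds mark an adjusted p under 0.05 and the grey band spans the middle 50% of all features tested. The diamonds are 2 features of mitochondrially encoded name for tissue and 1 alternative oxidase for time; no member has one for cutting.

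The comparison of a month with 4 days gave 1 call among 81 members, where 8.76% of all features tested were called, 7.81% as higher and 0.95% as lower at a month. The called member was an alternative oxidase, Unigene8037 (described as ubiquinol oxidase 2), the terminal enzyme of the branch that bypasses complexes III and IV. In leaf it held 22 counts in each library at 4 days, equal to 1.35 CPM in uncut and 1.46 CPM in cut explants, and 527 and 242 counts at a month, equal to 17.9 and 24.4 CPM. In rhizome it held 5 and 19 counts at 4 days (2.35 and 1.28 CPM in uncut and cut explants) and 31 and 39 counts at a month (3.82 and 6.59 CPM). All 4 libraries at a month were above all 4 at 4 days. Its log2 difference was 2.87 ± 0.64 (SE, 4 pairs), with an adjusted p of 0.014 by edgeR.

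The rise of Unigene8037 was 13.3-fold in uncut and 16.7-fold in cut leaf, against 1.63-fold in uncut and 5.13-fold in cut rhizome. The difference between tissues in that time effect, -2.28 on the log2 scale, did not pass the threshold (adjusted p of 0.378 by edgeR). The call was lost without the uncut leaf pair (2.53, adjusted p of 0.102 by edgeR) and held without each other pair.

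The other alternative oxidase, Unigene2799 (described as ubiquinol oxidase 1a), held 29 and 23 counts in uncut and cut leaf at 4 days and 173 and 118 at a month. In rhizome it held 6 and 22 counts at 4 days and 7 and 9 at a month. On the CPM scale the leaf libraries at a month stood at 5.89 and 11.9, above the other 6 at 0.862 to 2.82. Its log2 difference over both tissues was 0.99 ± 0.74, with an adjusted p of 0.548 by edgeR, and the difference between tissues was -3.13 with an adjusted p of 0.138. Between tissues, Unigene8037 stood at -1.08 ± 0.54 and Unigene2799 at -1.35 ± 0.65 (rhizome minus leaf, log2), with adjusted p-values of 0.248 and 0.221 by edgeR. These were the lowest tissue values among the members. On FPKM with a pseudocount of 1, limma called both lower in rhizome, Unigene2799 at -1.73 (adjusted p of 0.0159) and Unigene8037 at -1.66 (adjusted p of 0.0283). With a pseudocount of 0.1 it called Unigene2799 at -2.37 (adjusted p of 0.0374) and not Unigene8037 at -2.03 (adjusted p of 0.0682). At 4 days the rhizome held 1.74 and 1.58 times the leaf level in uncut explants and 0.882 and 0.977 times in cut explants.

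The type II NAD(P)H dehydrogenases, which deliver electrons to ubiquinone without passing complex I, were listed separately, since the descriptions that chose the members do not name them. Of 6 tested features on this list, which also holds electron transfer flavoproteins, 2 were called higher at a month and none lower. The log2 differences of the 6 had a median of 1.64 and a minimum of -0.58, against a median of 0.02 over all features. Of all features, 7.81% were called higher and 0.95% lower at a month. The external dehydrogenase B2 (Unigene3717), which faces the intermembrane space, held 1.78 and 0.661 CPM in uncut and cut leaf at 4 days and 10.9 and 8.45 CPM at a month. In rhizome it held 4.23 and 0.540 CPM at 4 days and 36.7 and 15.7 CPM at a month. The times did not overlap, and its log2 difference was 3.52 ± 0.55 with an adjusted p of 0.00201 by edgeR, which held without each pair. The internal dehydrogenase A2 (Unigene9883), which faces the matrix, was close to the detection floor, with 1 and 9 counts in uncut and cut leaf at 4 days, 73 and 28 at a month, and 0, 2, 4 and 7 counts in the rhizome libraries. Its log2 difference was 3.30 ± 0.84 with an adjusted p of 0.0285 by edgeR. The call was lost without the cut rhizome pair, at a log2 difference of 3.37 (adjusted p of 0.0981 by edgeR), and on FPKM, at 1.22 with a pseudocount of 1 and 2.62 with 0.1 (adjusted p of 0.0582 and 0.112 by limma). Without either leaf pair the feature was not tested, as it did not pass the count filter. With all pairs it passed through leaf at a month, where it was highest, so its call is not separate from that filter.

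**Figure D3:**
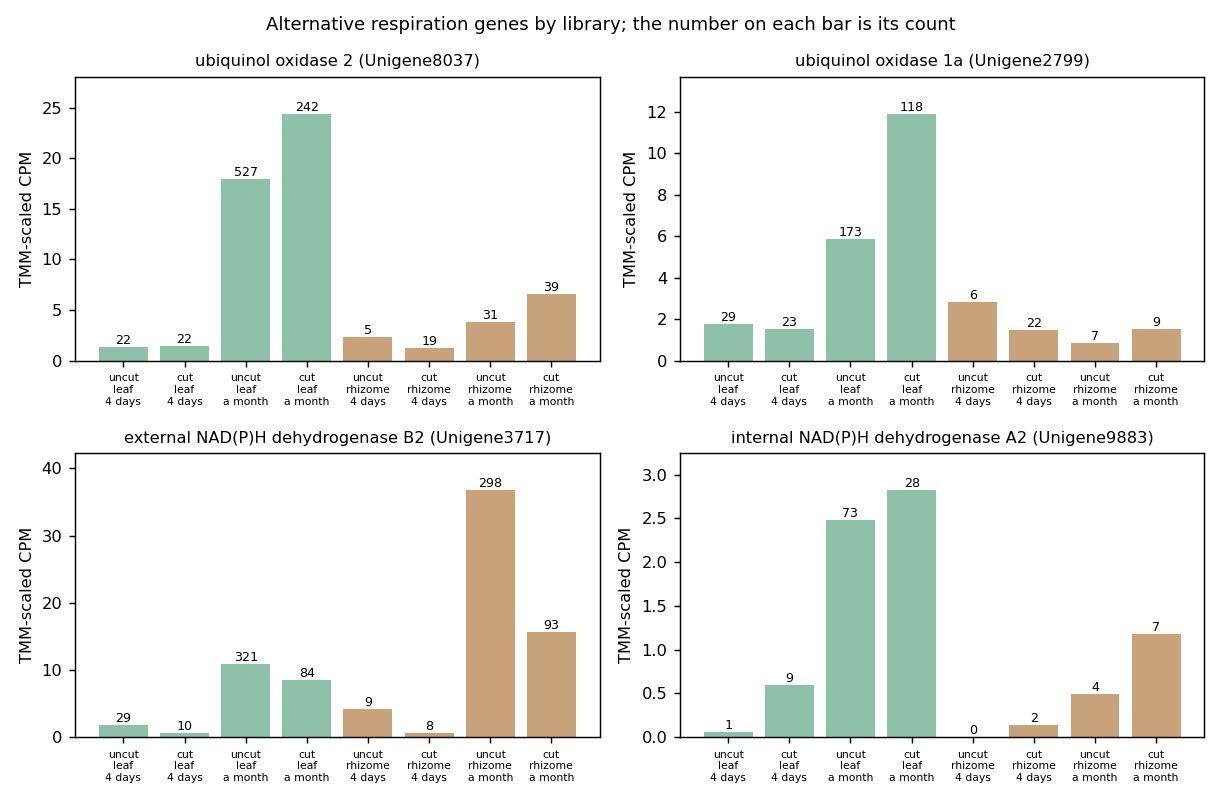
TMM-scaled CPM of the 2 alternative oxidases and of the 2 type II NAD(P)H dehydrogenases called higher at a month, in leaf (green) and rhizome (brown) libraries. The number on each bar is the count behind it. Unigene8037 reaches 17.9 and 24.4 CPM in leaf at a month, and Unigene3717 reaches 36.7 and 15.7 CPM in rhizome at a month.

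The phosphorylating chain showed no call over time. Nuclear-named members had a median log2 difference of -0.19, with 24 above and 46 below 0, where all features had 0.02. Pair by pair, their median was 0.001 in uncut leaf, 0.006 in cut leaf and -0.08 in cut rhizome. In uncut rhizome, the pair with the shallow library, it was -0.62, where all features had 0.72. Over all members the fitted median was -0.21, and -0.16 without that pair. The medians were -0.30 for complex I, with 22 of 29 members below 0, -0.34 for ATP synthase, with 11 of 13 below 0, -0.10 for complex II, 0.10 for complex III (-0.02 with DESeq2 size factors) and -0.16 for complex IV, the last of which became 0.32 without the uncut rhizome pair. With DESeq2 size factors the median of all features moved from 0.02 to -0.09 and that of nuclear-named members to -0.30. Only Unigene8037 among the 70 had an unadjusted edgeR p under 0.05, where 19.1% of all features did. The members with the largest fitted falls, CL2494.Contig1 of complex I at -1.46 ± 0.72 and Unigene5307 of ATP synthase at -1.46 ± 0.77, had adjusted p-values of 0.305 and 0.342 by edgeR and 61 to 106 counts in all libraries together. Succinate dehydrogenase assembly factor 2 (Unigene4784), which attaches the flavin of complex II, had 1.17 ± 0.59 and an adjusted p of 0.314.

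Few of the genes that supply the chain were called. On the list of mitochondrial carriers, 1 of 27 tested features was called over time, where 7.81% of all features were called higher: phosphate carrier protein 3 (CL1965.Contig1), which brings phosphate to ATP synthase, rose by a log2 difference of 3.35 ± 0.56 with an adjusted p of 0.0028 by edgeR. It held 15 and 23 counts in uncut and cut leaf at 4 days, 653 and 117 at a month, 4 and 13 in rhizome at 4 days and 72 and 55 at a month. On the CPM scale all 4 libraries at a month, at 8.87 to 22.2, were above all 4 at 4 days, at 0.878 to 1.88. The test of whether the tissue difference changed between times also called 1 of 27 carriers, with a larger rhizome effect at a month, where 0.608% of all features were. None of 22 tested tricarboxylic acid cycle features was called for tissue, time or cutting, with medians of 0.33, -0.24 and 0.29, and none of 22 tested partner subunits such as cytochrome c was called. Over all features 9%, 8.76% and 0.00856% were called for tissue, time and cutting. On the list of protein import components, 1 of 30 was called for tissue, where 2.07% of all features were called higher in rhizome: TOM6 (Unigene3569), a small part of the outer membrane import pore, was higher in rhizome by 1.47 ± 0.42 with an adjusted p of 0.0412 by edgeR. That call was lost without either uncut pair, without the cut pair at a month, with an additive model (adjusted p of 0.0633 by edgeR) and on FPKM.

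**Figure D4:**
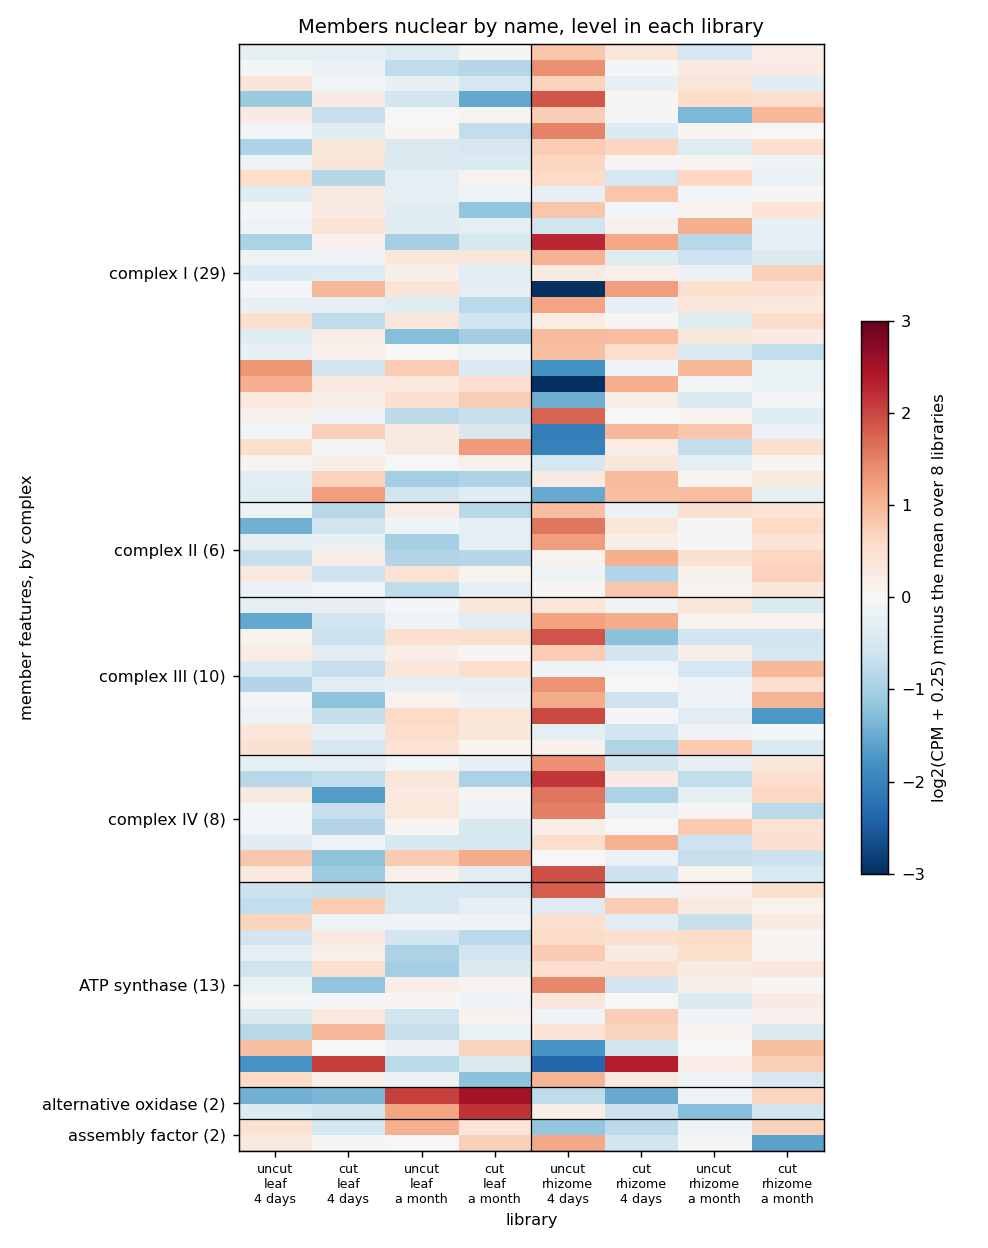
Level of each of the 70 tested members nuclear by name in each library, as log2(CPM + 0.25) minus the mean of that member over the 8 libraries, grouped by complex and ordered by mean level within it. The alternative oxidases are high in the leaf libraries at a month, and the column of uncut rhizome at 4 days, the library with 784 counts over these members, departs furthest in both directions.

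Cutting the leaves, the treatment of the study, called no member: 0 of 81 passed by edgeR's adjusted p and 0 by DESeq2's Wald test. An unadjusted edgeR p under 0.05 was found for 4 members (4.94%), against 8.28% of all features. By adjusted p, 0.00856% of all features were called. The median log2 difference between cut and uncut was -0.05 for nuclear-named members, with 32 above and 38 below 0, against 0.09 over all features. Complex IV had a median of -0.61, with 7 of 8 members below 0, and complex III had -0.44, with 8 of 10 below 0. Both were furthest from 0 in the rhizome pair at 4 days, which holds the shallow library, with pair medians of -1.84 for complex IV and -1.25 for complex III. In leaf the pair medians were -0.77 and -0.59 at 4 days and -0.33 and -0.16 at a month, and in rhizome at a month 0.30, with 5 of 8 complex IV members higher in cut explants, and -0.01. Complex I stood at 0.08 (-0.01 on FPKM with a pseudocount of 1), complex II at 0.06 and ATP synthase at 0.03. The alternative oxidases stood at 0.20 ± 0.49 for Unigene8037 and 0.22 ± 0.55 for Unigene2799, and both changed sign with 1 pair left out. The largest fitted falls were those of cytochrome c oxidase subunit 5C-2 (CL1379.Contig1) at -1.83 ± 0.86 and of the complex I beta subcomplex subunit 8 (Unigene439) at -1.38 ± 0.82, with adjusted p-values of 0.597 and 0.733 by edgeR.

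Read pair by pair, with no test, a member was counted when the higher library had at least 50 counts and the change was at least 4-fold with the lower library taken as at least 3 counts. At a month no member passed in leaf, where 51 had 50 counts and 1.5% of all such features were higher and 2.19% lower in cut explants, or in rhizome, where 19 did and 3.83% were higher and 1.18% lower. In leaf at 4 days 3 of 32 members were higher in cut explants and 0 lower, where 11.1% of all features with 50 counts were higher and 8.44% lower. In rhizome at 4 days 3 of 36 were higher and 2 lower, where 16% and 2.05% were. Only 1 nuclear-named feature was among them, CL2486.Contig8, and it passed in both tissues. The others were contigs named chain 2 or chain 4 of complex I. Unigene1227 and Unigene1206 were 7.91-fold and 6.05-fold higher in cut leaf. In rhizome CL351.Contig1 was 5.23-fold higher and CL1242.Contig1, with 152 counts against 0, at least 7.28-fold higher per library floor of 3 counts, while Unigene1156 and CL351.Contig3 were 5.40-fold and 4.92-fold lower. The rhizome pair at 4 days rests on the shallow uncut library.

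CL2486.Contig8, named ATP synthase subunit gamma, the rotating shaft of the enzyme, by SwissProt and without an Nr match, held 2 and 78 counts in uncut and cut leaf at 4 days and 0 and 93 counts in uncut and cut rhizome at 4 days. At a month it held 14 and 7 counts in uncut and cut leaf and 10 and 11 in uncut and cut rhizome. Both cut libraries at 4 days were thus above the other 6, at 5.16 and 6.28 CPM against 0 to 1.86. The difference between the cutting effects at the 2 times was -5.00 ± 1.45 on the log2 scale, with an adjusted p of 0.0361 by edgeR, the only such call among 81 members, where 1.96% of all features were called, 1.02% with a larger and 0.942% with a smaller cutting effect at a month. DESeq2 gave this member no adjusted p, and without the count filter the call was lost (adjusted p of 0.0883 by edgeR). The abundant feature of the same name, Unigene1442, did not follow it in rhizome and rose less in leaf. At 4 days Unigene1442 held 5.53 and 9.92 CPM in uncut and cut leaf, a 1.79-fold rise. It held 12.2 and 11.7 CPM in uncut and cut rhizome at 4 days. At a month it held 5.41, 4.63, 12.4 and 8.61 CPM in the same order. The gamma call therefore rests on the rarer contig, which held at most 35.0% of the counts under that name.

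**Figure D5:**
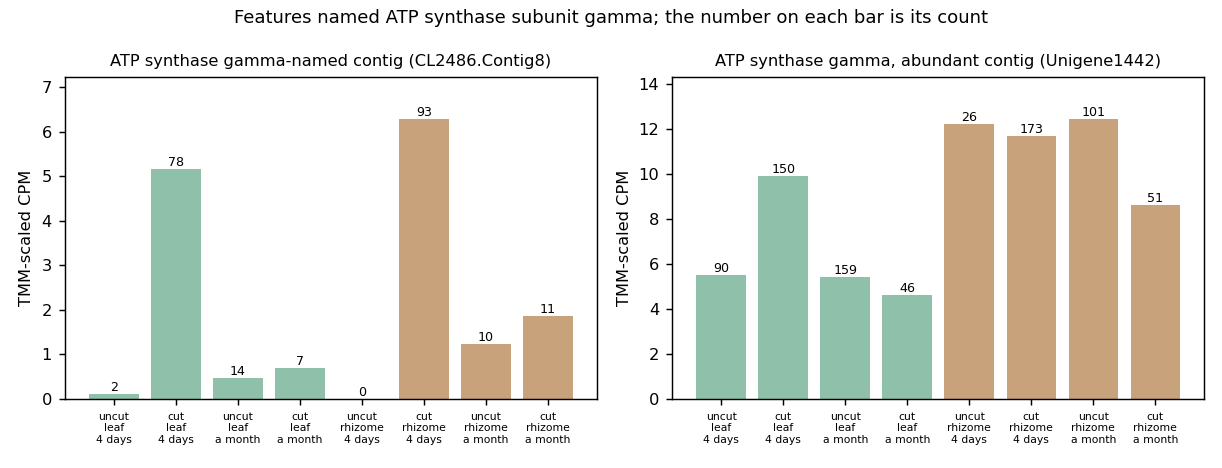
TMM-scaled CPM of both features named ATP synthase subunit gamma in leaf (green) and rhizome (brown) libraries, with the count on each bar. CL2486.Contig8 has 78 and 93 counts in the cut libraries at 4 days and 0 to 14 in the other 6, while Unigene1442 has 26 to 173 counts over all 8.

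Tests of whether the effect of cutting differed between tissues called no member (0 of 81 by edgeR, 0 by DESeq2), where 0% of all features were called. No member had an unadjusted edgeR p under 0.05 there, against 1.70% of all features. Tests of whether the tissue difference changed between the times called no member either (0 of 81 by edgeR, 0 by DESeq2). Of all features 1% were called, 0.608% with a larger and 0.394% with a smaller rhizome effect at a month. An unadjusted edgeR p under 0.05 was found for 8 members (9.88%), against 7.67% of all features. The smallest adjusted p among members in that test was that of the alternative oxidase Unigene2799. The median standard errors over members were 1.26 and 1.06 on the log2 scale, each more than a 2-fold change. Differences of that size were not detectable in these libraries. Larger ones also went uncalled, such as -3.13 for Unigene2799 in the test of the tissue difference between times.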

How the data were processed

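Per the file headers, the authors deposited for each library a table of assembled features with an expected count, an FPKM value, a length and annotation text. Bowtie2 and RSEM are the tools behind the deposited expected counts and FPKM, per the submitters' processing notes, with no version stated. No genome or sequence was used here. Features missing from a table were taken as 0 counts, and expected counts were rounded to whole numbers. Feature names are given without the ending "_All". The number of other columns of per-sample values was 0. The 24636 features were classed from their annotation as 34 ribosomal RNA, 237 organelle and 24365 other features, the last called nuclear.

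Features kept by filterByExpr were scaled by TMM and tested with robust quasi-likelihood F tests (edgeR 4.0.16, R 4.3.3) over all 11682 features, with Benjamini-Hochberg adjustment and a threshold of 0.05. Each factor was tested over 4 pairs, blocked on the combination of the other factors (3 residual degrees of freedom), and differences between effects left 2. Standard errors are the log2 fold change divided by the square root of F. The fits were also run on simulated data with planted changes much larger than the median change of the members. That run cannot show how well small changes are found. Alternatives were DESeq2 1.42.0, limma 3.58.1 on log2(FPKM + 1) and log2(FPKM + 0.1), no count filter, nuclear features only, an additive model, and each pair left out. Library totals of 6876374 to 12541182 counts are mostly ribosomal RNA. How far count depth limited precision was not tested.

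The members, lists and rule for named genes were chosen with earlier results of these data known. Named were members past the threshold, the 3 highest per complex by mean RPKM (not all are printed), the 2 largest fold changes per factor and direction, up to 3 per direction and pair past the 4-fold rule, alternative oxidases, and up to 3 called per list. The complex II members, CL1369.Contig4, COX11, contigs shown for shared reads, Unigene3958 and Unigene1442 were named after their values were seen. The dividing-cell list had 0 of 15 tested features called for tissue, time or cutting, and the xylem list 0 of 1. Over all features 9%, 8.76% and 0.00856% were called for these factors.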

Additional observations from a re-analysis of the deposited data

Results flagged for a closer look

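The effect of cutting on CL2486.Contig8, the rarer feature named ATP synthase subunit gamma, differed between the times, by -5.00 on the log2 scale (edgeR, adjusted p of 0.0361): it was higher in cut explants at 4 days, with 78 against 2 counts in leaf and 93 against 0 in rhizome, and not at a month, with 7 against 14 and 11 against 10. Without the shallow uncut rhizome library at 4 days, an alternative chosen after seeing the data, the difference was -4.78. In that fit the effect of cutting at 4 days rests on the leaf pair alone, so only the size is given.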

How the results depend on the processing

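No paired analysis was possible because the labels give no replicate numbers and each group is 1 library; pairs here are matched libraries of the design. Members called for tissue were 2 as reported, 6 by DESeq2's Wald test, 4 without the count filter, 1 on log2(FPKM + 0.1) and 2 on log2(FPKM + 1), which were alternative oxidases called lower in rhizome in place of the reported features, 1 without ribosomal RNA and organelle features, 0 among nuclear-named subunits, and 0 to 4 with a pair left out (4 without the cut pair at 4 days). The member median for tissue was 0.45, and -0.50 and -0.72 on FPKM with pseudocounts of 1 and 0.1, where all features had -0.73 and -1.30. Calls for time were 0 to 1 with a pair left out, and for cutting 0 to 1, the 1 being CL2486.Contig8 without the leaf pair at a month. The call for a cutting effect that differed between times was 0 by DESeq2, which gave CL2486.Contig8 no adjusted p, and 0 without the count filter. Without the shallow uncut rhizome library the effects at 4 days rest on 1 pair, so only sizes are given. The log2 difference of the cutting effect was then -4.78 for CL2486.Contig8 and -3.04 for the chain 2 contig Unigene1206. That of the tissue effect was 2.84 for CL351.Contig2 and 2.94 for CL351.Contig3, both chain 2 contigs. With 2-fold in place of 4-fold, 12, 3, 12 and 2 members passed in leaf at 4 days, leaf at a month, rhizome at 4 days and rhizome at a month, and with 20 counts 7 passed in leaf at 4 days. The share of all features under each alternative setting is not given here. The member counts under these settings therefore cannot tell a trait of the members from a more lenient setting. As shares of nuclear counts, the mean log2 ratio of rhizome to leaf was 0.71 for complex I and 1.22 for complex II, against 0.42 and 0.93. The cutting effects of the alternative oxidases changed sign: with a pair left out Unigene2799 ranged from -0.31 (without the leaf pair at a month) to 0.55, and Unigene8037 from -0.066 (without that pair; -0.023 without the rhizome pair at a month) to 0.46, and the latter was -0.048 on log2(FPKM + 1). Except where a setting itself drops features or libraries, the cause was not tested. Of the alternatives for single features, 243 kept direction and side of the threshold, 28 lost a call, 7 gained one and 4 changed sign.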
